A study of Mus musculus with 16 samples.

Results

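The genes described here are 10 genes of arginine synthesis and the urea cycle, chosen by name from the 24421 genes of the count tables: Nags, Cps1, Otc, Ass1, Asl, Arg1, Arg2, Aldh18a1, Prodh and Oat. They were measured by bulk RNA sequencing of intestinal epithelium from wild-type C57BL6/J mice, at postnatal day 6 (P6, suckling) and postnatal day 36 (P36, after weaning). Each age had 4 mice, 2 female and 2 male, and every mouse gave a segment of jejunum and a segment of ileum, so the 16 libraries form 4 groups of 4: P6 jejunum, P6 ileum, P36 jejunum and P36 ileum. The opened segments were held in EDTA and the epithelium was detached mechanically, with no sorting stated, so each library holds all epithelial cell types that came away and any other cells released with them. None of the mice in these libraries was mutant or treated. The replicate number names the mouse, so P6 jejunum replicate 1 and P6 ileum replicate 1 came from the same animal, while the mice of the 2 ages were different animals.

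The urea cycle joins ammonia to ornithine as carbamoyl phosphate, builds citrulline, then argininosuccinate, then arginine, and splits arginine into urea and ornithine. The liver runs the whole cycle, whereas the intestinal epithelium uses its early steps for synthesis: glutamate, glutamine and proline are turned into ornithine and citrulline. Before weaning the enterocyte of many mammals is known to carry citrulline on to arginine, since milk supplies little of it, while later the gut mainly exports citrulline and the kidney completes the synthesis.

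Levels below are CPM, a gene's counts relative to its library total after scaling by trimmed means (TMM). Where genes are compared with each other, TPM are used, which also divide by the exon length of the gene. A gene passed the test where the Benjamini-Hochberg adjusted p of edgeR's quasi-likelihood test was below 0.05 over the 13429 genes tested, and it passed the fold minimum where its absolute log2 fold change was also above 2, the study's own limit. Both regions came from each mouse, but the test has no term for the mouse, and values within mice are given beside the regional comparisons.

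The libraries held 12159237 to 25947276 counts. P6 ileum replicate 4 stood apart, with 12.1% of 13414 genes far from the other 3 P6 ileum libraries, against 0.313% to 2.03% in each of the other libraries. P6 ileum replicate 2 carried markers of other tissue: its 5 smooth muscle markers summed to 218 CPM, against 0.910 to 3.38 in the other P6 libraries, and its 5 fibroblast markers to 239 CPM. Epithelial markers were present in all libraries (Epcam 1137 to 2230 CPM). The 6 epithelial markers summed to 3846 CPM in P6 ileum replicate 4, the lowest of its group, whose highest sum was 6208 CPM. Vil1 (752 CPM), Krt8 (256 CPM) and Krt18 (185 CPM) were far below the rest of the group there. Epcam, Cdh1 and Krt20 lay within or next to its range. The hepatocyte marker Alb was at 0 to 0.235 CPM, so the defining liver transcript was at or near 0 beside the urea cycle genes. Of the 5 hepatocyte markers only Tat exceeded 2 CPM, at 16.2 to 30.9 CPM in the P36 ileum.

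Of the 10 genes, 8 were tested and Ass1 and Arg1 were not. Between P6 and P36, 7 of the 8 tested genes changed in the jejunum and the same 7 in the ileum, each in the same direction in both regions: Cps1, Asl, Aldh18a1 and Oat fell, and Otc, Arg2 and Prodh rose. Of all tested genes, 24.7% rose and 26.9% fell in the jejunum, and 25.5% rose and 30.1% fell in the ileum. In each region 3 of the 8, Arg2, Asl and Aldh18a1, also passed the fold minimum, against 16.4% of all tested genes for the jejunal comparison and 16.4% for the ileal one. Over the 8 genes the median log2 fold change with age was -0.36 (jejunum) and -0.17 (ileum), beside -0.01 and -0.03 over all tested genes.

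**Figure D1:**
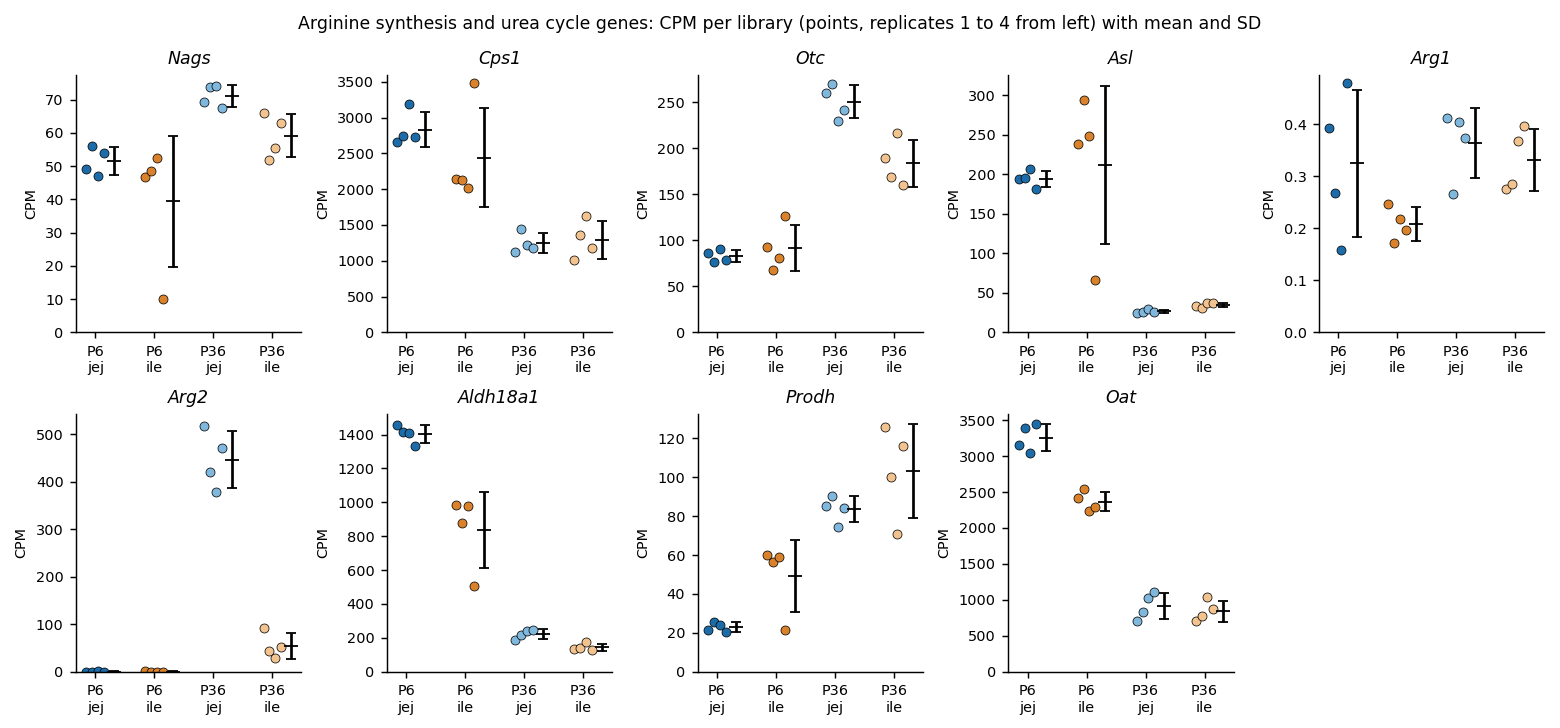
CPM of 9 of the genes (vertical axes, linear from 0, one scale per gene) in the 4 groups, with replicates 1 to 4 from left to right as points and the group mean with its SD as a black mark. Cps1, Asl, Aldh18a1 and Oat sat lower in all 8 P36 libraries than in any P6 library of the same region, Otc, Arg2 and Prodh sat higher, and P6 ileum replicate 4 lay away from its group for Nags, Cps1, Asl, Aldh18a1 and Prodh. The share of all tested genes that separate by age in this way was not computed. Ass1 is left out because its counts do not measure it.

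Promoter sequences are shown for 3 of the genes that moved with age, Oat and Aldh18a1, which fell, and Otc, which rose. RefSeq (GRCm38.p6) promoters were matched by symbol for 6 of the 10 genes (Nags, Otc, Ass1, Aldh18a1, Prodh and Oat), and Asl, Cps1, Arg1 and Arg2 had no match. Each sequence is the 250 bases before the start site, 5′ to 3′ on the gene's strand: chr7:132576399-132576648 on the minus strand for Oat, chr19:40588464-40588713 on the minus strand for Aldh18a1 and chrX:10252055-10252304 on the plus strand for Otc. Capitals mark matches on either strand to 6 motifs. The first is the TATA box, spelled TATAAA. The second is the CCAAT box, spelled as its name, and the third the GC box, which reads GGGCGG. The others are the E box, which reads CACGTG, an HNF4 element that reads CAAAGTCCA and a C/EBP element that reads TTGCGCAA.
Oat: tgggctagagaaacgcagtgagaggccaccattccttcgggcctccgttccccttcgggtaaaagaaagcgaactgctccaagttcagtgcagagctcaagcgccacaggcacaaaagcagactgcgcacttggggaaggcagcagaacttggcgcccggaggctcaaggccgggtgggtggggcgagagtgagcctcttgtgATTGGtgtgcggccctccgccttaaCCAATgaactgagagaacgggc
Aldh18a1: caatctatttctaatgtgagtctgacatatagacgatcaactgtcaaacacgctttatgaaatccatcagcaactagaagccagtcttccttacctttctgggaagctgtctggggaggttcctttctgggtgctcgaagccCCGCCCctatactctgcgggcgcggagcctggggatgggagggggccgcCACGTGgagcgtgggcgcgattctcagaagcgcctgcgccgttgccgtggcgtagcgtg
Otc: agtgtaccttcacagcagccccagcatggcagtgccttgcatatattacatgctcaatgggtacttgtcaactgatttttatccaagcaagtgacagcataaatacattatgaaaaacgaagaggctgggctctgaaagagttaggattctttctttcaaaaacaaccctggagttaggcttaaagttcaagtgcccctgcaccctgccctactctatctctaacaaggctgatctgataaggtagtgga

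The Oat sequence held CCAAT boxes that begin 47 and 22 bases before the start, the first of them on the opposite strand. The Aldh18a1 sequence held a GC box on the opposite strand at 108 bases and an E box at 59 bases before the start. The Otc sequence matched none of the 6 motifs. Its window ends at chrX:10252304, at a RefSeq start site upstream of the counted gene, which begins at chrX:10252359. The Oat and Aldh18a1 windows end where the counted genes begin. Among 32851 promoters of this length, 33.8% held a CCAAT box, 32.7% a GC box, 6.02% an E box, 12.4% a TATA box, 0.384% the HNF4 element and 0.164% the C/EBP element. These are matches of letters in a window, not binding sites.

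Nags makes N-acetylglutamate, the activator that Cps1 needs. Nags (chr11:102145513-102149528, plus strand, mm10) was at 49.3, 56.0, 47.0 and 54.0 CPM in P6 jejunum replicates 1 to 4 and at 46.8, 48.6, 52.4 and 9.96 CPM in the P6 ileum. In the P36 jejunum it was at 69.4, 73.7, 74.0 and 67.5 CPM, and in the P36 ileum at 66.0, 52.0, 55.5 and 63.1 CPM. All P36 jejunum libraries lay above all P6 jejunum libraries, and 3 of the 4 P6 ileum libraries lay close to the P6 jejunum while replicate 4 was far below. Nags passed no test, with log2 fold changes with age of 0.46 ± 0.32 (SE, adjusted p = 0.247) in the jejunum and 0.58 ± 0.32 (adjusted p = 0.136) in the ileum. Without P6 ileum replicate 4 the ileal value was 0.27 and passed (adjusted p = 0.0267), and in a fit of the 8 jejunal libraries alone the jejunal value was 0.48 and passed (adjusted p = 0.000199). Those fits passed 8465 of 13656 and 8901 of 12633 genes with age. In the main fit, of 13429 genes, 3428 rose and 4047 fell in the ileum, and 3312 rose and 3615 fell in the jejunum.

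Cps1, carbamoyl phosphate synthetase, catalyses the entry of ammonia into the cycle in the mitochondrion. Cps1 (chr1:67123027-67231267, plus strand) was at 2662, 2737, 3192 and 2724 CPM in the P6 jejunum and at 2136, 2123, 2021 and 3478 CPM in the P6 ileum. At P36 it was at 1124, 1443, 1225 and 1182 CPM in the jejunum and at 1005, 1356, 1627 and 1175 CPM in the ileum. The ages did not overlap in either region, and the group mean was 2.27-fold lower at P36 in the jejunum and 1.89-fold lower in the ileum. Cps1 fell by 1.19 ± 0.20 in log2 units in the jejunum (SE, adjusted p = 0.000145) and by 0.92 ± 0.20 in the ileum (adjusted p = 0.00117). At P36 it was still at 415 ± 59.2 TPM (SD, n = 4) in the jejunum and 452 ± 107 TPM in the ileum.

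Otc, ornithine transcarbamylase, makes citrulline from ornithine and carbamoyl phosphate, the step just after Cps1, and it moved the other way. Otc (chrX:10252359-10321024, plus strand) was at 86.1, 76.3, 90.5 and 78.2 CPM in the P6 jejunum and at 93.2, 68.2, 80.4 and 126 CPM in the P6 ileum. The P36 libraries held it at 260, 270, 230 and 242 CPM in the jejunum and at 189, 169, 217 and 160 CPM in the ileum. Every P36 library exceeded every P6 library. Otc rose by 1.6 ± 0.17 in log2 units in the jejunum (adjusted p = 8.35e-07) and by 1.00 ± 0.17 in the ileum (adjusted p = 9.51e-05), or 3.03-fold and 2.00-fold in group means. In TPM, Cps1 stood at 1017 ± 145 and Otc at 73.0 ± 9.48 in the P6 jejunum, and at P36 at 415 ± 59.2 and 205 ± 16.6, so Cps1 remained the higher in each of the 4 jejunal libraries of both ages.

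Ass1, argininosuccinate synthetase, and Asl, argininosuccinate lyase, turn citrulline into arginine. The level of Ass1 (chr2:31470270-31520670, plus strand) could not be read from these counts. The annotation used for counting places Gm5424, the symbol of an Ass1 pseudogene, on the same strand at chr2:31470308-31520629, where its exons cover 1552 of the 1631 exon bases of Ass1 (95.2%) and leave 79. The counting command recorded in the files sets no option to count read pairs that fall on 2 genes, and the counts were 12 for Ass1 over the 16 libraries, at 0 in 9 of them, and 0 for Gm5424. RefSeq GRCm38.p6 places Gm5424 on another chromosome. No other of the 10 genes shared an exon base with another gene on its strand.

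Asl (chr5:130011503-130024331, minus strand) was at 194, 195, 207 and 182 CPM in the P6 jejunum and at 238, 294, 249 and 66.3 CPM in the P6 ileum. At P36 it was at 24.8, 25.9, 29.5 and 26.1 CPM in the jejunum and at 33.4, 31.3, 36.6 and 37.3 CPM in the ileum. The lowest P6 value, ileum replicate 4, was still above the highest P36 value. Asl fell by 2.87 ± 0.31 in log2 units in the jejunum (adjusted p = 1.22e-06) and by 2.61 ± 0.31 in the ileum (adjusted p = 3.05e-06), or 7.31-fold and 6.12-fold in group means. Among the genes that were tested, Asl went from the fourth highest in TPM in both regions at P6 to the lowest in both regions at P36, at 32.3 ± 3.21 TPM (SD, n = 4) in the jejunum and 43.8 ± 2.81 TPM in the ileum.

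The arginases split arginine into urea and ornithine, Arg1 in the cytosol and best known from the liver, Arg2 in the mitochondrion. Arg1 (chr10:24915207-24927470, minus strand) had 3 to 10 counts in each of the 16 libraries and was not tested. Arg2 (chr12:79130788-79156301, plus strand) had 3, 0, 9 and 3 counts in P6 jejunum replicates 1 to 4 and 11, 0, 6 and 0 counts in the P6 ileum. A count of 0 allows up to 3 counts, which is 0.134 CPM in P6 jejunum replicate 2, 0.129 CPM in P6 ileum replicate 2 and 0.147 CPM in P6 ileum replicate 4, for counting error only.

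At P36, Arg2 was at 517, 420, 378 and 470 CPM in the jejunum and at 91.0, 43.0, 28.8 and 52.7 CPM in the ileum. The P36 libraries held 666 to 9526 counts of it, against 0 to 11 in any P6 library, and the P36 jejunum lay above the P36 ileum in all libraries. Arg2 rose with age by 11.24 ± 0.74 in log2 units in the jejunum (SE, adjusted p = 4.33e-09) and by 7.97 ± 0.68 in the ileum (adjusted p = 8.88e-08). These fitted values depend on the few P6 counts: leaving out 1 library in turn moved the jejunal value between 10.81 and 12.17 and the ileal value between 7.51 and 9.02. In TPM, Arg2 reached 582 ± 60.8 (SD, n = 4) in the P36 jejunum, above Cps1 in all 4 libraries, and 72.7 ± 32.4 in the P36 ileum.

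Aldh18a1, Prodh and Oat supply ornithine through pyrroline-5-carboxylate, an intermediate that proline and glutamate both feed. Aldh18a1 makes it from glutamate. Aldh18a1 (chr19:40550257-40588463, minus strand) was at 1456, 1415, 1407 and 1332 CPM in the P6 jejunum and at 986, 876, 977 and 508 CPM in the P6 ileum. In P36 mice it was at 186, 219, 242 and 248 CPM in the jejunum and at 132, 139, 173 and 130 CPM in the ileum. Neither the ages nor the regions overlapped. Aldh18a1 fell by 2.65 ± 0.20 in log2 units in the jejunum (adjusted p = 2.00e-08) and by 2.54 ± 0.20 in the ileum (adjusted p = 3.25e-08), or 6.27-fold and 5.83-fold in group means.

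Prodh, proline dehydrogenase, makes the same intermediate from proline, and it rose while Aldh18a1 fell. Prodh (chr16:18071726-18089190, minus strand) was at 21.7, 25.7, 24.2 and 20.3 CPM in the P6 jejunum and at 59.8, 56.4, 59.1 and 21.5 CPM in the P6 ileum. At P36 it was at 85.0, 90.5, 74.4 and 84.1 CPM in the jejunum and at 126, 100, 70.7 and 116 CPM in the ileum. The ages did not overlap in either region, and P6 ileum replicate 4 lay within the range of the P6 jejunum. Prodh rose by 1.86 ± 0.26 in log2 units in the jejunum (adjusted p = 2.01e-05) and by 1.07 ± 0.25 in the ileum (adjusted p = 0.00216).

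Oat, ornithine aminotransferase, interconverts the intermediate and ornithine, and it was the most abundant of the genes in TPM in every group. Oat (chr7:132557475-132576398, minus strand) was at 3151, 3385, 3050 and 3451 CPM in the P6 jejunum and at 2412, 2536, 2232 and 2293 CPM in the P6 ileum. In P36 mice it was at 708, 834, 1019 and 1104 CPM in the jejunum and at 699, 773, 1037 and 867 CPM in the ileum. The ages did not overlap in either region. Oat fell by 1.83 ± 0.18 in log2 units in the jejunum (adjusted p = 2.96e-07) and by 1.49 ± 0.17 in the ileum (adjusted p = 2.71e-06). Its mean level was the 23rd highest of all genes in the P6 jejunum and the 22nd highest in the P6 ileum, at 3008 ± 107 and 2927 ± 100 TPM (SD, n = 4).

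The genes stood in another order in TPM at the 2 ages. In the P6 jejunum it ran Oat, Cps1, Aldh18a1, Asl, Otc, Nags and Prodh, and no neighbours among these 7 overlapped in their ranges over the 4 libraries. In the P6 ileum it ran Oat, Cps1, Aldh18a1, Asl, Otc, Prodh and Nags, and the ranges of Aldh18a1 and Asl, of Asl and Otc, and of Prodh and Nags overlapped. In the P36 jejunum the order was Oat, Arg2, Cps1, Otc, Aldh18a1, Prodh, Nags and Asl, where Oat and Arg2 overlapped, as did Prodh and Nags. In the P36 ileum the order was Oat, Cps1, Otc, Prodh, Aldh18a1, Arg2, Nags and Asl, where the neighbours from Prodh to Nags overlapped. Arg2 and Arg1 lay below the others at P6 in both regions, at means of at most 0.407 TPM for Arg2.

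**Figure D2:**
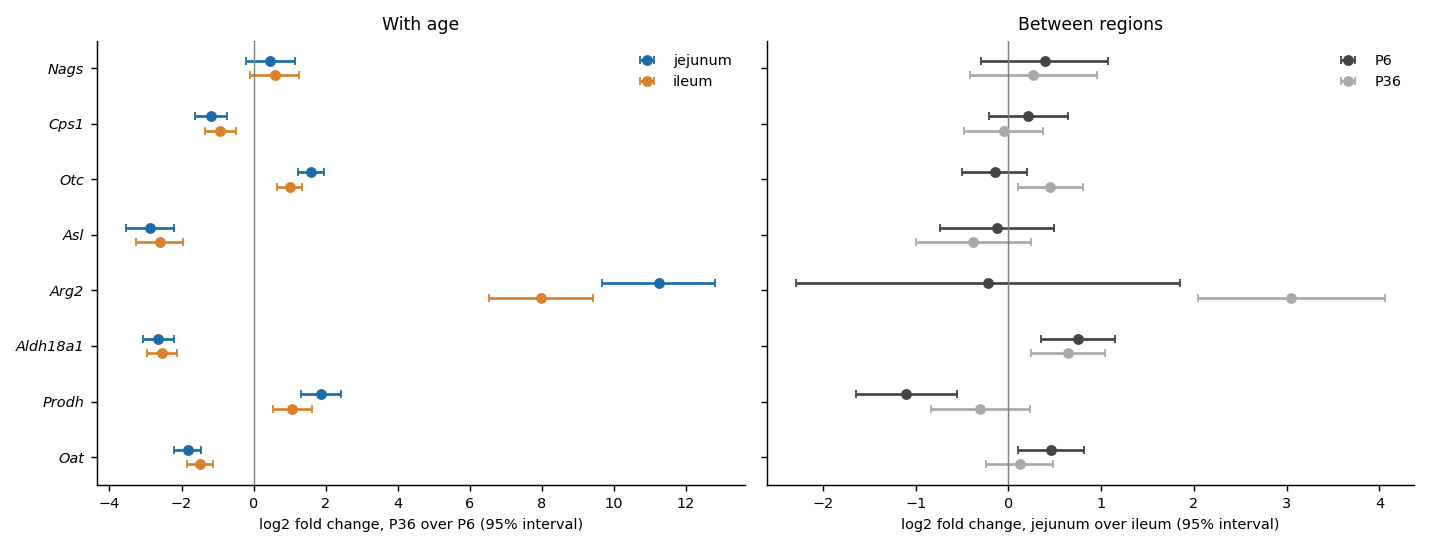
Log2 fold changes of the 8 tested genes with their 95% confidence intervals, for P36 over P6 in the jejunum and the ileum (left) and for the jejunum over the ileum at P6 and P36 (right). With age the intervals of 7 genes lie away from 0 in both regions and that of Nags spans it, and Arg2 has the largest change of the 8 genes. Between regions the intervals that exclude 0 are those of Arg2 and Otc at P36, Prodh and Oat at P6 and Aldh18a1 at both ages.

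Between the jejunum and the ileum the differences were fewer. At P6, Aldh18a1 was higher in the jejunum (log2 fold change 0.75 ± 0.19, adjusted p = 0.00827) and Prodh lower (-1.10 ± 0.26, adjusted p = 0.00488), 1 of the 8 tested genes in each direction, where 11.1% of all tested genes were higher and 14.8% lower in the jejunum. None of the 8 passed the fold minimum, which 6.50% of all tested genes did. At P36, Arg2 (3.05 ± 0.48, adjusted p = 0.000371) and Aldh18a1 (0.64 ± 0.19, adjusted p = 0.0290) were higher in the jejunum, 2 of 8, and none was lower, against 8.30% and 7.80% of all tested genes. Arg2 alone of the 8 passed the fold minimum at P36, which 3.60% of all tested genes did. The median log2 fold change over the 8 genes was 0.04 at P6 and 0.20 at P36, beside -0.05 and -0.04 over all tested genes.

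Within single mice, Aldh18a1 was higher in the jejunum in 8 of 8, by 0.56, 0.69, 0.53 and 1.39 in log2 CPM in P6 mice 1 to 4 and by 0.49, 0.66, 0.49 and 0.93 in P36 mice 1 to 4. Its call at P36 was near the limit. It was lost without P36 jejunum replicate 2, 3 or 4 or P36 ileum replicate 1, 2 or 4 (log2 fold change 0.59 to 0.65, adjusted p = 0.0517 to 0.0872). Under scaling by library totals alone it was lost at P6 (0.46, adjusted p = 0.0866) and at P36 (0.50, adjusted p = 0.0998), a scaling that shifted the median of all genes by -0.287 and -0.137. Arg2 at P36 differed by 2.51, 3.28, 3.71 and 3.15 in log2 CPM within mice 1 to 4, and its group mean was 8.28-fold higher in the jejunum.

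Prodh at P6 was lower in the jejunum by -1.46, -1.13, -1.28 and -0.08 in log2 CPM in mice 1 to 4, so mouse 4 showed almost no difference. Oat at P6 was higher in the jejunum in all 4 mice, by 0.39, 0.42, 0.45 and 0.59, with a log2 fold change of 0.46 ± 0.17 that missed the test (adjusted p = 0.0575). It passed with the mouse as a replicate block (0.46, adjusted p = 0.0357), by DESeq2 (0.47, adjusted p = 0.0112) and in a fit of the 8 P6 libraries alone (0.46, adjusted p = 0.0249). In that order, 3622 of 13429, 4069 of 13429 and 2598 of 12674 genes differed between regions at P6. The main fit had 1495 higher and 1989 lower. Asl at P36 was lower in the jejunum in all 4 mice, by -0.43, -0.27, -0.31 and -0.51, and Otc higher in all 4, by 0.46, 0.68, 0.09 and 0.60. Neither passed the test, with adjusted p = 0.436 for Asl and 0.0758 for Otc. In a fit of the 8 P36 libraries alone Asl (-0.36, adjusted p = 0.0284) and Otc (0.47, adjusted p = 0.0222) passed, and Otc also did by DESeq2 (0.44, adjusted p = 0.0480). Over all tested genes 2959 of 12415 differed at P36 in the fit of 8 libraries and 2706 of 13429 by DESeq2. The main fit had 1115 higher and 1048 lower at P36.

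**Figure D3:**
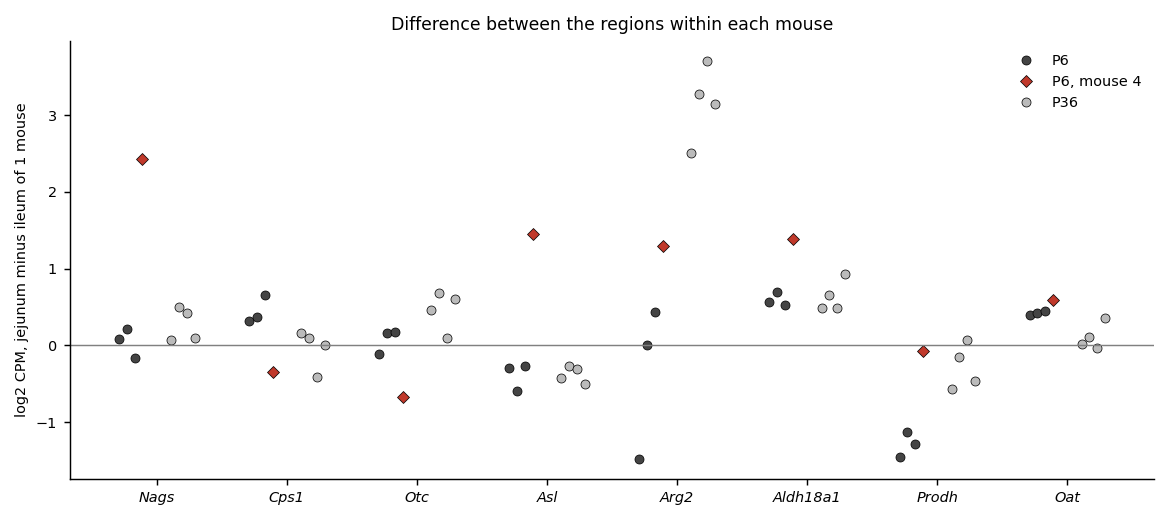
Difference in log2 CPM between the jejunum and the ileum of the same mouse (vertical axis, above 0 is higher in the jejunum) for the 8 tested genes, P6 mice in dark and P36 mice in light circles, with P6 mouse 4 as a diamond. Aldh18a1 lies above 0 in all 8 mice, Arg2 lies above 2 in all P36 mice, and P6 mouse 4 takes the opposite sign to the other 3 P6 mice or lies apart from them for Cps1, Asl, Otc, Nags, Aldh18a1 and Prodh.

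Leaving out P6 ileum replicate 4 raised the number of genes that differed between regions at P6 from 2 to 4. Calls rose over all tested genes too, to 4450 of 13656, where the main fit had 1495 higher and 1989 lower of 13429. Without P6 ileum replicate 4 Asl was lower in the jejunum (-0.42, adjusted p = 0.00409) and Cps1 higher (0.44, adjusted p = 0.0491), Aldh18a1 stood at 0.57 (adjusted p = 0.00372) and Prodh at -1.34 (adjusted p = 1.32e-05). Without both this library and P6 ileum replicate 2, 3 genes passed, Asl (-0.35, adjusted p = 0.0151), Aldh18a1 (0.49, adjusted p = 0.0280) and Prodh (-1.40, adjusted p = 4.72e-05), and Cps1 was at 0.42 (adjusted p = 0.134). Over all tested genes 3740 of 13786 differed there. The 7 age calls in the ileum held with both libraries left out.

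Whether the regional difference itself changed with age was tested as the P6 log2 fold change minus that at P36. None of the 8 genes passed this test by edgeR, against 8.69% of all tested genes. Before adjustment 3 of them were below 0.05, Arg2 (-3.28 ± 1.12, adjusted p = 0.0866), Otc (-0.60 ± 0.23, adjusted p = 0.128) and Prodh (-0.79 ± 0.36, adjusted p = 0.198). With the mouse as a replicate block Arg2 passed (-3.37, adjusted p = 0.0387), and by DESeq2 too (-3.27, adjusted p = 0.0486), and no other of the 8 genes did so in either fit. Without P6 ileum replicate 4 both Arg2 (-3.68, adjusted p = 0.0455) and Prodh (-1.04, adjusted p = 0.00431) passed. Over all tested genes 1912 of 13656 passed in that fit, against 1167 of 13429 in the main fit. With the replicate block 1294 of 13429 passed, and by DESeq2 1713 of 13429.

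Markers of epithelial cell types moved with age and among libraries. The 5 Paneth cell markers summed to 20.9 to 802 CPM at P6 and 4220 to 14498 at P36, the 5 goblet cell markers to 1689 to 4085 and 7552 to 17910, and the 4 proliferation markers to 134 to 344 and 458 to 858. The 5 enterocyte markers summed to 89690 to 110859 CPM in the P6 jejunum and 26142 to 35397 in the P36 jejunum. In the ileum they summed to 9411 to 20161 at P6 and 3256 to 26708 at P36. Apoa4 carried the jejunal fall (63639 to 81230 CPM at P6, 2668 to 4655 at P36). Alpi and Apoa1 also fell there, while Fabp2 and Anpep rose. The P6 Paneth range was set by Itln1, at 435 to 782 CPM in both regions of P6 mice 1 and 3 and at 4.36 to 10.3 CPM in those of mice 2 and 4. These pairs of mice share a prefix of the animal identifier, whose meaning the labels do not state. Over both regions at P6, Arg2 had 3 to 11 counts in mice 1 and 3 and 0 to 3 in mice 2 and 4. Gatm, which starts creatine synthesis, was at 19.6 to 88.0 CPM in mice 1 and 3 and at 116 to 209 CPM in mice 2 and 4. Other listed genes also split by these pairs, among them Cad and Slc7a1, which were higher in mice 1 and 3 within each region. The share of all genes that split in this way was not computed. The 7 genes that changed with age did so in the same direction in each pair, since their ages did not overlap in either region. The share of all tested genes whose ages did not overlap was not computed, so this is not a trait particular to these genes. In bulk epithelium a change in the number of cells of a type and a change in RNA per cell cannot be told apart. Among the 4 P36 ileum libraries the 5 enterocyte markers (Alpi, Fabp2, Apoa1, Apoa4, Anpep) summed to 26708, 9685, 3256 and 11353 CPM and the 4 stem cell markers (Lgr5, Olfm4, Ascl2, Smoc2) to 358, 533, 878 and 395 CPM in replicates 1 to 4. Arg2 in these libraries, at 91.0, 43.0, 28.8 and 52.7 CPM, took the order of the enterocyte sum and of each of its 5 markers. Prodh, at 126, 100, 70.7 and 116 CPM, took the same order. Cps1, at 1005, 1356, 1627 and 1175 CPM, took the order of the stem cell sum and of Olfm4 and Smoc2, while Lgr5 was equal in replicates 2 and 4 (18.9 CPM) and Ascl2, at 1.55, 4.03, 3.80 and 3.56 CPM, took another order. Nags, Otc, Asl, Aldh18a1 and Oat took neither the enterocyte nor the stem cell order in these libraries. In the P6 ileum Cps1 also took the order of the stem cell sum, but in neither jejunal group did it do so.

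P6 ileum replicate 4 had the lowest enterocyte sum of its group (9411 CPM, against 16288 to 20161) and the highest stem cell sum (402 CPM, against 139 to 286), beside the highest Cps1 and Otc and the lowest Nags, Asl, Aldh18a1 and Prodh. The markers within these sums did not move together. Olfm4 alone carried the stem cell sum (355 CPM, against 77.2 to 220), Ascl2 (1.03 CPM, against 3.36 to 5.10) and Smoc2 (10.5 CPM, against 15.2 to 17.8) were the lowest of the group, and Lgr5 lay within its range. Of the enterocyte markers Fabp2 was the highest of the group (949 CPM, against 239 to 439) and the other 4 the lowest. The part of cell composition in these values was not tested.

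The likeness of profiles was measured as the root-mean-square difference of log2 CPM after each gene's own mean was taken off, over the 16 libraries and the 13428 other tested genes. Genes near each other share groups, libraries and depth, so these are descriptions. Closest to Arg2 were Slc28a3 (1.22), Sis (1.27), the sucrase-isomaltase of the brush border, and Cyp4f14 (1.34), against a median of 4.87. Closest to Aldh18a1 were Flcn (0.24), Nid2 (0.27) and Ctsz (0.27), and to Asl were Naglu (0.25), a lysosomal enzyme, Unc119 (0.26) and Vasn (0.28). For Oat they were Tmem171 (0.21), Wipi1 (0.22) and Fbxo7 (0.22), and for Cps1 Taf7 (0.15), Ccng1 (0.16) and Msi2 (0.17).

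For Otc the closest were Gpsm2 (0.14), Pgk1 (0.16) and Mtch2 (0.17), for Prodh Osbpl5 (0.28), Cacna1a (0.30) and Ern2 (0.33), and for Nags Rps6ka1 (0.15), Get4 (0.15) and Sharpin (0.16). Among the genes themselves Cps1 and Oat differed by 0.41, Asl and Aldh18a1 by 0.52, and Aldh18a1 and Oat by 0.55, while Cps1 and Otc, neighbours in the pathway, differed by 1.21 against a median of 0.83 from Cps1 to all genes.

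A further 54 genes around the pathway were followed through hand-made lists, of which 47 were tested. Of these 14 rose and 13 fell with age in the jejunum, where 24.7% of all tested genes rose and 26.9% fell, and 18 rose and 13 fell in the ileum, beside 25.5% and 30.1%. At P6, 9 of the 47 were higher and 10 lower in the jejunum than in the ileum (11.1% and 14.8% of all tested genes), and at P36, 5 were higher and 8 lower (8.30% and 7.80%). The interaction was passed by 6 of the 47, against 8.69% of all tested genes. The lists hold at most 8 tested genes each, so their counts are descriptions to be read against these shares. Of the 7 untested genes, Amd1 shares 99.7% of its exon bases with Amd2 in the same annotation and Oaz1 shares 89.5% with Oaz1-ps. They had 0 and 3 counts over the 16 libraries.

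Among the genes of proline and pyrroline-5-carboxylate, Aldh4a1, which oxidises the intermediate to glutamate, was at 0.480 to 1.34 CPM in the P6 jejunum and 100 to 195 CPM in the P36 jejunum, and it rose by 7.44 ± 0.96 in log2 units there (adjusted p = 8.50e-06) and by 3.29 ± 0.78 in the ileum (adjusted p = 0.00211). In the ileum it was at 4.29, 4.70, 5.04 and 0.588 CPM at P6 and at 103, 16.0, 3.51 and 20.8 CPM at P36, so the ages overlapped, and without P36 ileum replicate 1 its ileal rise was 1.87 (adjusted p = 0.0132). Its interaction passed (-4.15 ± 1.12, adjusted p = 0.0313) and was lost without any 1 of 8 libraries, P6 jejunum replicate 1, 2 or 3, P6 ileum replicate 2, P36 jejunum replicate 1 or 2 or P36 ileum replicate 2 or 4 (-4.10 to -3.94, adjusted p = 0.0507 to 0.0698). Prodh2, which acts on hydroxyproline, moved opposite to Prodh and fell by 2.41 ± 0.51 in the jejunum (adjusted p = 0.000989), from 2.5 to 5.57 CPM at P6 to 0.494 to 1.15 CPM at P36.

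Of the 8 genes of glutamine and glutamate, 4 rose and 1 fell in each region, beside 24.7% and 26.9% of all tested genes for the jejunum and 25.5% and 30.1% for the ileum. Glud1, glutamate dehydrogenase, was at 75.1 to 91.8 CPM in the P6 jejunum and 763 to 1094 CPM in the P36 jejunum, and at 98.5 to 129 CPM and 217 to 359 CPM in the ileum. It rose by 3.45 ± 0.19 in the jejunum (adjusted p = 5.03e-10) and by 1.24 ± 0.17 in the ileum (adjusted p = 1.86e-05), and the difference between these passed (interaction -2.20 ± 0.24, adjusted p = 3.54e-05). Gpt, alanine aminotransferase, was at 80.3 to 158 CPM in the P6 jejunum against 1.42 to 5.26 CPM in the P6 ileum, and its interaction was 4.19 ± 0.61 (adjusted p = 0.000418). Gls2, a glutaminase, rose by 2.02 ± 0.40 in the jejunum (adjusted p = 0.000554) and 3.16 ± 0.45 in the ileum (adjusted p = 1.99e-05).

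Among the 5 tested mitochondrial carriers, 2 rose and 1 fell in each region, against the same 24.7% and 26.9% and 25.5% and 30.1%. The aspartate-glutamate carriers moved in opposite directions: Slc25a13, citrin, fell by 1.69 ± 0.12 in the jejunum (adjusted p = 9.04e-09) and by 1.5 ± 0.12 in the ileum (adjusted p = 3.53e-08), and Slc25a12, aralar, rose by 1.41 ± 0.19 (adjusted p = 1.13e-05) and 1.33 ± 0.18 (adjusted p = 1.77e-05). Slc25a15, the ornithine carrier, was at 431 to 464 CPM in the P6 jejunum and 415 to 492 CPM in the P36 jejunum. In the ileum it was at 262 to 387 CPM at P6 and 150 to 357 CPM at P36. It passed no test with age in the main fit. With 1 library left out in turn its ileal change was -0.67 to -0.23 (adjusted p = 0.00272 to 0.3), so not every such fit left it uncalled. At P36 Slc25a15 was higher in the jejunum than in the ileum (0.99 ± 0.21, adjusted p = 0.00377).

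Of the 7 tested transporters of cationic amino acids at the plasma membrane, 1 rose and 1 fell in each region, against 24.7% and 26.9% and 25.5% and 30.1% of all tested genes. Slc7a1, the arginine and lysine importer CAT-1, rose by 1.73 ± 0.17 in the jejunum (adjusted p = 3.71e-07) and 1.19 ± 0.17 in the ileum (adjusted p = 1.88e-05). Slc7a7, which exports arginine at the basolateral membrane together with Slc3a2, passed no test with age and was higher in the jejunum at P6 (1.15 ± 0.24, adjusted p = 0.00244).

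Of the 7 tested genes on the list of nitric oxide, creatine and agmatine, 2 rose and 4 fell with age in each region, again beside 24.7% and 26.9% and 25.5% and 30.1%. Nos2, the inducible nitric oxide synthase, was at 0.0892 to 2.28 CPM at P6 and at 38.5 to 313 CPM at P36, and it rose by 8.85 ± 0.89 in the jejunum (adjusted p = 5.51e-07) and 6.94 ± 0.76 in the ileum (adjusted p = 1.41e-06). Gatm, which starts creatine synthesis from arginine, was at 19.6 to 209 CPM at P6 and 0.265 to 2.61 CPM at P36, and it fell by 6.93 ± 0.71 (adjusted p = 6.50e-07) in the jejunum and fell by 6.63 ± 0.68 in the ileum (adjusted p = 7.22e-07). Agmat, Gamt and Azin2 also fell in both regions, of which Gamt and Azin2 were named after their values were seen, and Azin2 lost its ileal call without P6 ileum replicate 2 (-1.93, adjusted p = 0.0519). Ddah1, which clears methylated arginines, was lower in the jejunum than in the ileum at both ages, by -4.13 ± 0.17 (adjusted p = 3.56e-10) at P6 and -3.45 ± 0.16 (adjusted p = 2.24e-09) at P36.

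Of the 8 tested polyamine genes, 2 rose and 2 fell in the jejunum (24.7% and 26.9% of all tested genes) and 3 rose and 3 fell in the ileum (25.5% and 30.1%). Sat1, which acetylates polyamines for export, fell by 1.32 ± 0.13 in the jejunum (adjusted p = 4.24e-07) and by 1.71 ± 0.13 in the ileum (adjusted p = 2.93e-08). Azin1, an antizyme inhibitor, rose by 1.95 ± 0.18 (adjusted p = 1.91e-07) and by 1.6 ± 0.18 (adjusted p = 1.61e-06). Of the 3 tested genes of bicarbonate, deacylation and pyrimidine carbamoyl phosphate, Car5a, the mitochondrial carbonic anhydrase, fell by 4.41 ± 0.83 (adjusted p = 0.000324) and by 4.02 ± 0.82 (adjusted p = 0.000609). Car5a was at 0.490 to 4.95 CPM at P6 and 0 to 0.332 CPM at P36. Each P36 library held 0 to 6 counts of it, so these fold changes depend on few counts. Cad, which makes carbamoyl phosphate for pyrimidines, rose in the ileum by 1.33 ± 0.39 (adjusted p = 0.00838). There it was at 25.3, 13.9, 31.3 and 5.05 CPM at P6 and at 31.2, 58.9, 54.5 and 45.1 CPM at P36, so the ages overlapped. The lowest P6 value was that of replicate 4.

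Among 4 transcription factors known for urea cycle genes in liver, Cebpa fell by 1.63 ± 0.16 in the jejunum (adjusted p = 3.25e-07) and by 1.20 ± 0.16 in the ileum (adjusted p = 8.41e-06). Nr3c1, the glucocorticoid receptor, rose by 0.97 ± 0.15 (adjusted p = 3.99e-05) and 0.44 ± 0.14 (adjusted p = 0.0161). Hnf4a rose in the ileum by 0.39 ± 0.13 (adjusted p = 0.0158) and stood at -0.10 ± 0.13 in the jejunum (adjusted p = 0.529). In a fit of the 8 ileal libraries alone neither Nr3c1 (0.46, adjusted p = 0.0895) nor Hnf4a (0.40, adjusted p = 0.121) passed there.

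**Figure D4:**
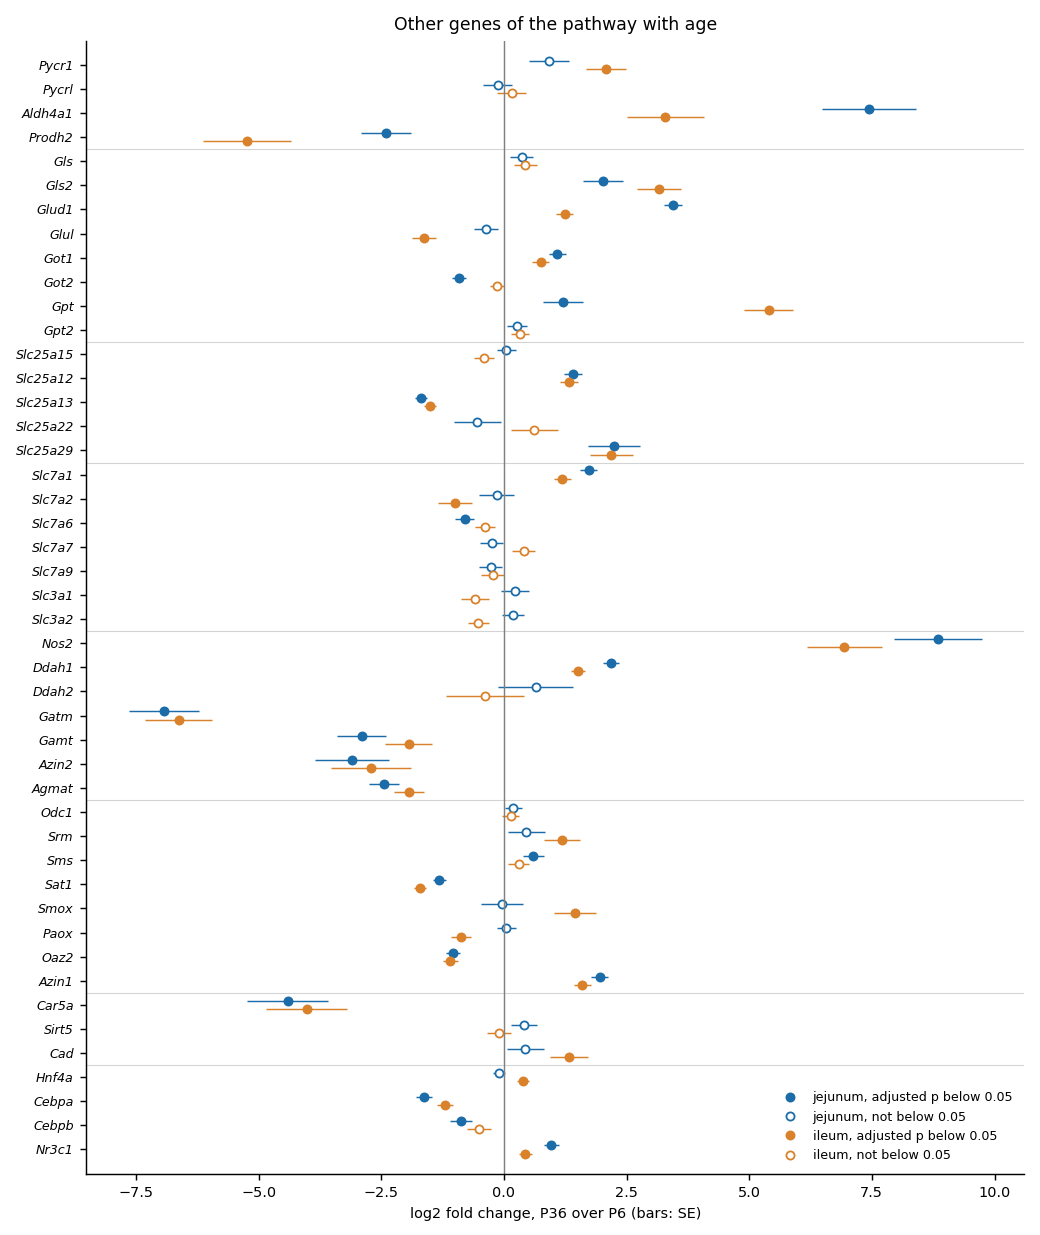
Log2 fold change of P36 over P6 (horizontal axis, bars are the SE) for 46 of the 47 tested pathway genes in the jejunum and the ileum, grouped by list from proline genes at the top to transcription factors at the bottom. Filled points had an adjusted p below 0.05 and open points did not. Nos2 and Aldh4a1 lie far to the right in the jejunum and Gatm far to the left in both regions.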

How the data were processed

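Bulk RNA-seq was analysed for 16 libraries, jejunum and ileum of 4 mice at each age. Per the labels and the study's methods, the authors made stranded mRNA libraries (Kapa), used Trimmomatic 0.38 for trimming, STAR (2.5.3 in the submitters' processing notes) for alignment to mm10, and featureCounts of Subread 1.6.3 to count read pairs on exons. The deposited values are raw counts per gene in each library, with the gene's exon length. Counts were filtered with filterByExpr on the 4 groups (13429 genes), scaled by TMM and entered into the quasi-likelihood test of edgeR 4.0.16 (R 4.3.3) as 1 fit of 4 group means without a block, with Benjamini-Hochberg adjustment over all tested genes. The SE is the log2 fold change divided by the square root of F, and the prior count of log2 CPM was 2. DESeq2 1.42.0 was an alternative. The procedure was tested on simulated data.

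Replicate numbers pair the regions because they name the mouse. Across genes, deviations from the group mean correlated between the regions of a mouse with r of 0.157 to 0.391 at P6 and 0.240 to 0.347 at P36. Between different mice r was -0.284 to 0.120 at P6 (mean -0.106) and -0.367 to 0.232 at P36 (mean -0.101). Taking deviations from each group's own mean draws these means below 0, so they add no separate evidence of pairing. At P6, different mice that share an identifier prefix had r of 0.008 to 0.120, and mice with different prefixes -0.284 to -0.073. Whether mice that share a prefix are independent replicates was not tested.

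The 10 genes and all lists were chosen with earlier results of these data known. Named genes were the 10 genes, up to 3 genes per pathway list and comparison with the smallest adjusted p among those past the test, pathway genes outside the filter, the 3 nearest profiles of each gene, and marker genes that moved with a result. Alternatives were other scalings and filters, sex as a covariate, a robust prior, thinned counts, fits of 8 libraries, the mouse as a block and each library left out, and, added after seeing the data, P6 ileum replicates 2 and 4 left out together and the value of each pathway gene under all of these. The labels name no batch. At P6 the animal identifiers in the titles have 2 prefixes, 1 for mice 1 and 3 and 1 for mice 2 and 4, whose meaning is not stated. Counting limits cover counting error only. The values of 1 pathway gene are not reported here.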

Additional observations from a re-analysis of the deposited data

Results flagged for a closer look

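In 30 groups of 4 libraries, Dixon's test at the 95% level marked 4 values that lay apart from the other 3 of their group, where chance marks about 1 in 20 groups. Of these, 3 belonged to P6 ileum replicate 4: Nags at 9.96 CPM against 46.8 to 52.4 in the other 3 libraries, Cps1 at 3478 CPM against 2021 to 2136, and Prodh at 21.5 CPM against 56.4 to 59.8. The other was Cps1 in P6 jejunum replicate 3, at 3192 CPM against 2662 to 2737. The jejunal library of P6 mouse 4 did not share the deviations of its ileal library, with Nags at 54.0, Cps1 at 2724 and Prodh at 20.3 CPM, each within or next to the range of the other P6 jejunum libraries.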

How the results depend on the processing

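No direction of a called value of the 8 genes or of the tested pathway genes reversed under any alternative run. The 7 age calls in each region held throughout, with counts of 7 or 8, and 3 genes passed the fold minimum in each region (4 in the ileum under some alternatives). Of the genes that differed between regions at P6, 2 became 1 under library totals and ranged from 2 to 4 with 1 library left out, the 4 without P6 ileum replicate 4, and 3 with Oat by DESeq2 and with only the 8 libraries compared. At P36, 2 became 1 under library totals and 4 with only the 8 libraries compared (Otc and Asl added), 3 by DESeq2 (Otc), and 1 to 2 with 1 library left out, Aldh18a1 being lost without P36 jejunum replicate 2, 3 or 4 or P36 ileum replicate 1, 2 or 4. For the interaction, 0 became 1 by DESeq2, 1 with the replicate block, 2 without both P6 ileum replicates 2 and 4, and 0 to 2 with 1 library left out, Arg2 passing without P6 ileum replicate 2 (-3.73), P6 ileum replicate 4 (-3.68) or P36 ileum replicate 1 (-3.65). Pathway genes past the interaction, 6, ranged from 3 to 9 with 1 library left out, with 3 without P6 jejunum replicate 1 or 4, P6 ileum replicate 2, P36 jejunum replicate 1, 2 or 4 or P36 ileum replicate 2 or 4, and 9 without P6 ileum replicate 4. The number of all tested genes past the test moved too. With 1 library of the comparison left out, 2605 to 4450 genes differed between regions at P6 and 1418 to 2726 at P36. The interaction was passed by 835 to 1912 genes, the highest number without P6 ileum replicate 4. The replicate block, which pairs the regions of a mouse, also added Oat at P6 (3 genes in place of 2) and changed no other call of the 8 genes. The cause of these changes was not tested. The 15 and 17 counts of Arg2 in the P6 groups limit its fold change, and the annotation leaves Ass1 unmeasured.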
